A study of Mus musculus with 10 samples.

Results

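The 10 genes described here are the histone deacetylases Hdac1, Hdac2, Hdac3, Hdac4, Hdac5, Hdac7, Hdac9 and Hdac11, the deacetylase Sirt1, and Ncor1, the nuclear receptor corepressor. They were taken by Ensembl gene ID from the ATAC-seq counts of intestinal epithelial cells (IECs), and hold 73 of 246479 peaks and 10 of 44580 gene IDs. ATAC-seq counts fragments that a transposase releases from DNA not covered by nucleosomes, so the values are read here as openness of chromatin at each peak and not as expression of the gene or activity of the enzyme. The labels' protocol names a Tn5 transposase given to nuclei, but also a protein A-Tn5 transposome and cuts near proteins, which is the wording of antibody-directed assays. It names no antibody, and the counts were taken as ATAC-seq, as the study calls them. Sorted IECs labelled duodenum, the first stretch of the small intestine, came from 5 wild-type (WT) mice, numbered 1 to 5, and from 5 global Zip14 knockout (KO) mice, numbered 6 to 10. The legend of the study's ATAC-seq heatmap gives 6 mice per group, whereas the counts used here hold 5. The study's methods give WT as Zip14+/+ and KO as Zip14-/- offspring of heterozygous parents backcrossed to C57BL/6, used as young adults and, where not stated otherwise, female. They also describe the dissected gut as duodenum with upper jejunum. Zip14, encoded by Slc39a14, brings zinc into cells, and its deletion in KO mice is whole-body, so that other organs lack it as well as the epithelium. The study asked whether the loss of this transporter alters zinc-dependent control of chromatin in IECs.

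Histone deacetylases remove acetyl groups from lysines of histone tails, which tends to compact chromatin and lower transcription. The classical enzymes carry a zinc ion in the active site, whereas the sirtuins use NAD in place of zinc. Hdac3 works with Ncor1, which holds the enzyme in a corepressor complex and switches on its activity, and in the intestine Hdac3 is known for linking signals of the microbiota to epithelial gene programmes.

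Total counts over all peaks were between 5202949 and 15775481 in WT mice and between 4731176 and 6094983 in KO mice, with medians of 8677347 and 5659163. WT2, with the fewest counts of the WT mice, was the library whose removal raised the number of gene IDs past an adjusted p of 0.05 the most, from 1434 to 3311, and the members' fits were repeated without it. The counts list gene IDs without symbols, and IDs for genes other than the 10 members were not matched to names, so the Slc39a14 peaks, epithelial and lymphocyte markers and other corepressor subunits were not analysed here, and the labelled cell type was not checked. A change in the mixture of cells and a change within each cell cannot be told apart in these counts. The labels give each sample of a group its own number, and each was treated as a separate mouse.

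The members' positions in RefSeq on GRCm38.p6 lie on 8 chromosomes. In class I, Hdac1 (ENSMUSG00000028800) is on chromosome 4 from 129516104 to 129542646, Hdac2 (ENSMUSG00000019777) on chromosome 10 from 36974297 to 37001889, and Hdac3 (ENSMUSG00000024454) on chromosome 18 from 37936971 to 37955015. In class IIa, Hdac4 (ENSMUSG00000026313) is on chromosome 1 from 91928779 to 92195702, Hdac5 (ENSMUSG00000008855) on chromosome 11 from 102195747 to 102230172, Hdac7 (ENSMUSG00000022475) on chromosome 15 from 97792661 to 97844502, and Hdac9 (ENSMUSG00000004698) on chromosome 12 from 34047580 to 34917095. Of the others, Hdac11 (ENSMUSG00000034245) is on chromosome 6 from 91156670 to 91174692, Sirt1 (ENSMUSG00000020063) on chromosome 10 from 63319005 to 63339035, and Ncor1 (ENSMUSG00000018501) on chromosome 11 from 62315663 to 62457414. The deposited peaks carry a gene ID and no coordinates, but their implied running number puts the peaks of each of the 10 genes in 1 unbroken block, and the 10 blocks follow each other in the order of these positions. Peaks are therefore numbered here by order along the chromosome, and whether a peak lies in a promoter, exon or intron was not analysed here.

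Peaks were shared out unevenly. Hdac4 had 22, Hdac7 13, Ncor1 12, Hdac3 7, Hdac2 5, Hdac1 4, and Hdac5, Hdac9 and Sirt1 3 each, while Hdac11 had 1, against a median of 4 over all gene IDs. Of the 73 peaks, 39 passed edgeR's filter on low counts and could be tested. All 3 peaks of Hdac5 and the single peak of Hdac11 were among them, with 11 of Hdac7, 9 of Hdac4, 6 of Hdac3, 3 of Hdac2 and 2 each of Hdac1, Sirt1 and Ncor1. None of the 3 peaks of Hdac9 passed. Peak widths are not in these counts, so levels are compared between mice for 1 gene or peak at a time, and not between genes.

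The start regions of the members differ in base composition, and 3 are printed because they span the range of CpG content from among the highest to 0, Sirt1 and Ncor1 at one end and Hdac9 at the other. Each is RefSeq sequence of GRCm38.p6 on the minus strand, read 5′ to 3′ up to the base before the annotated gene, outside the extent of any RefSeq gene, with every CpG in capitals. The Sirt1 stretch is chr10:63339036-63339285, that of Ncor1 is chr11:62457415-62457582 and that of Hdac9 is chr12:34917096-34917345.
Sirt1: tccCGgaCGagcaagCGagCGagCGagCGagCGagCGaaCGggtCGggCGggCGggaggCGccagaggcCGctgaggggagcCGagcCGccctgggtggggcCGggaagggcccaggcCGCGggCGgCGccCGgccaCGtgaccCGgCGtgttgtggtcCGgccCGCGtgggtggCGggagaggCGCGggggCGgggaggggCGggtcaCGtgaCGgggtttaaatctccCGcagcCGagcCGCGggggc
Ncor1: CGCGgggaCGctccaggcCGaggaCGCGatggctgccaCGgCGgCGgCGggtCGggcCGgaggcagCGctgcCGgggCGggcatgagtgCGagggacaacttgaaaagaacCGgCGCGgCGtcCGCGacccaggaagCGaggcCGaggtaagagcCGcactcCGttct
Hdac9: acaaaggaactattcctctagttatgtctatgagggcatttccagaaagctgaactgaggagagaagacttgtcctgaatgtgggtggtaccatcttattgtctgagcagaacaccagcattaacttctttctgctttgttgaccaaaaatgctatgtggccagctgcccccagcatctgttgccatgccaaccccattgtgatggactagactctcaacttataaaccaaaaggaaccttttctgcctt
The Sirt1 stretch holds 39 CpG in 250 bases, a number reached by 1.56% of the 32851 RefSeq start windows of that length. The Ncor1 stretch holds 26 in 168 bases, and its full 250-base window, which enters the annotated gene, holds 34, reached by 3.53% of windows. The Hdac9 stretch holds 0, against a median of 6, and 7.87% of all windows lack a CpG.

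Start windows, the 250 bases before an annotated transcript start, were given for 8 of the 10 genes, not for Hdac1 and Hdac3. The Hdac5 window, which ends where the gene begins, held 12 CpG. The Hdac2 window held 27 and the Hdac4 window 23, both at starts inside the extent of the gene, and the Hdac11 window, across the gene's outer end, held 17. Of the 4 windows of Hdac7, 3 lie inside the gene with 5, 25 and 21 CpG and 1 before it with 6, and the inner start windows of Ncor1 and Hdac9 held 2 each. The GC box GGGCGG, read on both strands, was in the windows of Hdac2, Hdac4, Hdac5, Hdac11 and Sirt1, in 1 of 4 of Hdac7, in 1 of 2 of Ncor1 and in none of Hdac9, against 32.7% of all windows. Such a match is a description of letters, and does not place a peak there.

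KO was compared with WT by the summed counts of each gene's peaks, fitted with edgeR's quasi-likelihood test over 36715 gene IDs. None of the 10 members passed a Benjamini-Hochberg adjusted p of 0.05, where 3.91% of all gene IDs did. At an unadjusted p under 0.05 the count was again 0 of 10, against 27.5% of all gene IDs. The KO and WT values of each member overlapped, whereas 6.02% of gene IDs had no overlap. In direction, 6 members were lower and 4 higher in KO mice, with a median log2 fold change of -0.10, and 50.5% of all gene IDs were lower. With loess offsets, Hdac2 turned to a higher and Hdac9 to a lower value.

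**Figure D1:**
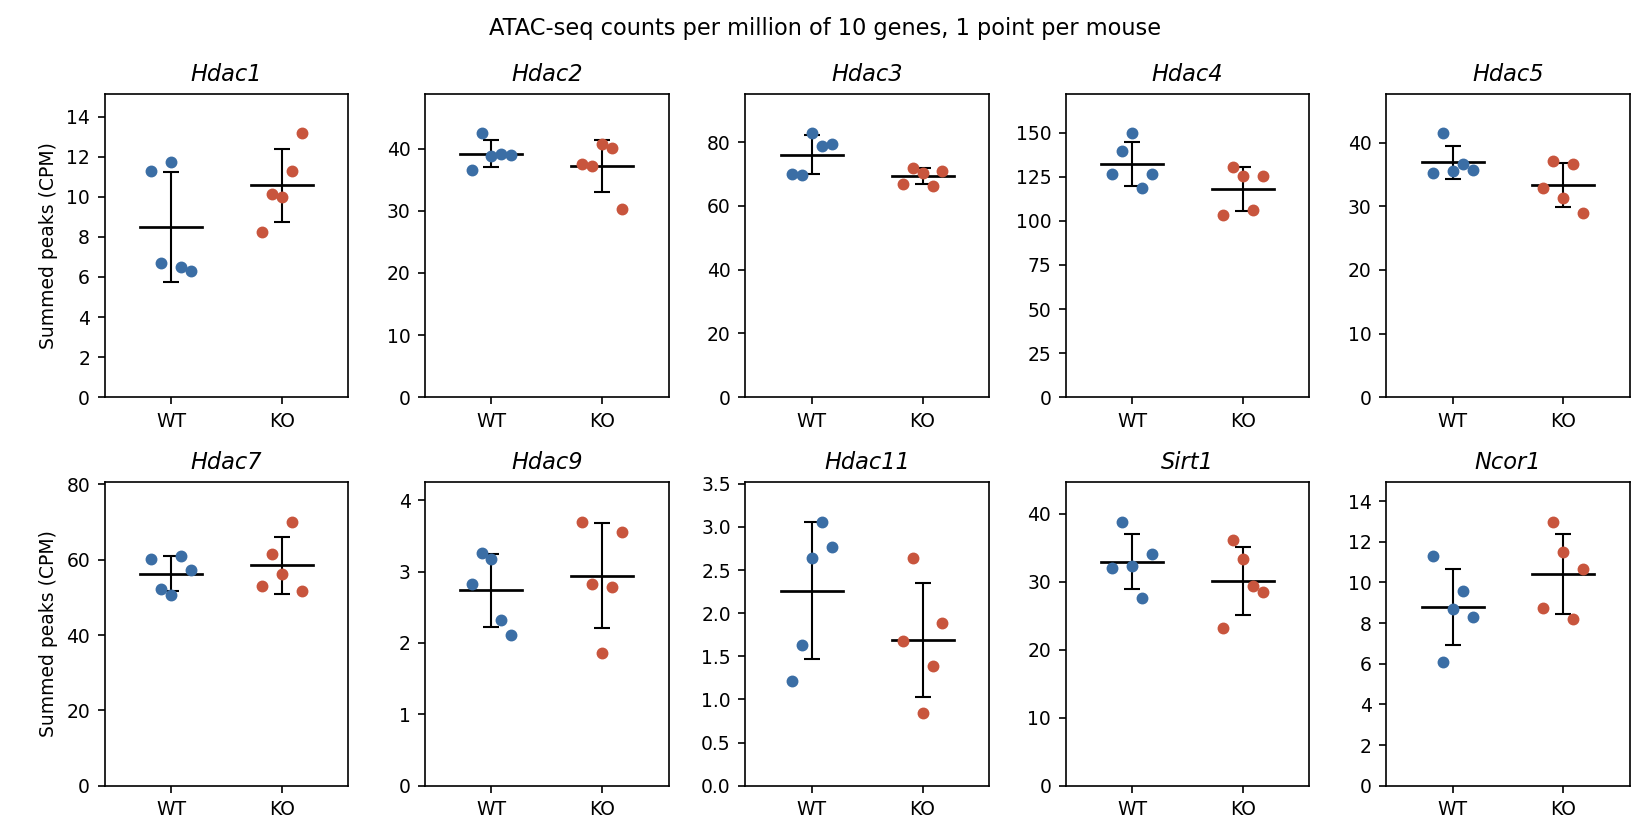
CPM (counts scaled to library size with edgeR's TMM factors) of the summed peaks of each gene, 1 point per mouse, with the mean as a line and the SD as bars (n = 5 per genotype), each panel on an axis that starts at 0. WT and KO points overlap in all 10 panels, and the spread relative to the mean is widest for Hdac11.

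The class I enzymes among the members are Hdac1, Hdac2 and Hdac3. Hdac3 had summed CPM (counts scaled to library size) of 69.8, 69.6, 82.8, 78.6 and 79.5 in WT1 to WT5 and of 67.0, 71.9, 70.4, 66.3 and 70.9 in KO6 to KO10. WT3, WT4 and WT5 were above every KO mouse, WT1 and WT2 lay among the KO mice, and KO6 and KO9 were below every WT mouse. The means were 76.1 ± 6.01 in WT and 69.3 ± 2.52 in KO (SD, n = 5 each), a log2 fold change of -0.14 ± 0.0738 (SE), with a 95% interval of -0.29 to 0.02 (edgeR, adjusted p = 0.227). An exact two-sided permutation test on the log2 CPM of the 10 mice gave p = 0.0794. Without WT2 the fold change was -0.17 (unadjusted p = 0.0406, adjusted p = 0.148). It was smaller with loess offsets, at -0.023 (unadjusted p = 0.716), for the strongest peak alone, at -0.023 (unadjusted p = 0.787), and over tested peaks only, at -0.065 (unadjusted p = 0.329).

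Hdac2, a partner of Hdac1 in several repressor complexes, had 36.5, 42.5, 38.8, 39.2 and 38.9 CPM in WT mice and 37.5, 37.3, 40.8, 40.2 and 30.3 CPM in KO mice. All KO mice but KO10, which was the lowest of the 10, lay inside the WT range. Its log2 fold change was -0.07 ± 0.0897 (SE), with an interval of -0.26 to 0.12 (edgeR, adjusted p = 0.631).

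Hdac1 had 11.3, 6.71, 11.7, 6.49 and 6.32 CPM in WT mice and 8.24, 10.2, 9.99, 11.3 and 13.2 CPM in KO mice. WT1 and WT3 lay near 11 to 12, among the higher KO mice, and the other 3 WT mice were under every KO mouse. This gave a log2 fold change of 0.31 ± 0.196 (SE), with an interval of -0.10 to 0.72 (edgeR, adjusted p = 0.304), and 1 KO mouse was above all WT mice.

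Class IIa holds Hdac4, Hdac5, Hdac7 and Hdac9, which shuttle between nucleus and cytoplasm, bind MEF2 transcription factors and have little deacetylase activity of their own. Hdac4 had 126.5, 139.6, 149.8, 118.5 and 126.9 CPM in WT mice and 103.5, 130.4, 125.4, 105.9 and 125.5 CPM in KO mice. KO6 and KO9 were below every WT mouse and the other KO mice lay in the lower part of the WT range. Its log2 fold change was -0.16 ± 0.0885 (SE), with an interval of -0.35 to 0.02 (edgeR, adjusted p = 0.236; exact two-sided permutation p = 0.119).

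Hdac5 had 35.2, 41.5, 35.5, 36.6 and 35.7 CPM in WT mice and 32.8, 37.1, 31.3, 36.7 and 28.9 CPM in KO mice. WT2 stood above the other 9 mice, the remaining WT mice lay within 2 CPM of each other, and KO6, KO8 and KO10 were below every WT mouse. The log2 fold change was -0.14 ± 0.0917 (SE; edgeR, adjusted p = 0.320), and -0.10 without WT2.

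Hdac7, which is known for its part in lymphocytes and endothelium, had 60.2, 52.3, 50.7, 61.0 and 57.3 CPM in WT mice and 53.0, 61.6, 56.2, 70.1 and 51.7 CPM in KO mice. KO9 was the highest of the 10 mice, KO7 was just above the highest WT mouse, and the other 3 KO mice lay inside the WT range. Its log2 fold change was 0.06 ± 0.0909 (SE; edgeR, adjusted p = 0.71), and without KO9 it was -0.01.

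Hdac9 rested on 3 weak peaks whose counts ran from 1 to 14 in a mouse. The summed CPM were 2.82, 3.26, 3.17, 2.33 and 2.11 in WT mice and 3.70, 2.82, 1.86, 2.78 and 3.56 in KO mice. Both the lowest and the highest value belonged to KO mice. KO over WT, this was a log2 fold change of 0.13 with an interval of -0.37 to 0.64 (edgeR, adjusted p = 0.736), which is a fold of 0.771 to 1.56.

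Hdac11, the class IV enzyme, has a single peak, with counts of 9, 8, 25, 25 and 46 in WT mice and 10, 14, 5, 8 and 9 in KO mice. Scaled to CPM these were 1.21, 1.63, 2.64, 3.06 and 2.77 in WT mice and 1.68, 2.64, 0.846, 1.39 and 1.88 in KO mice. WT1 and WT2 lay among the KO mice, and KO8 was the lowest of all. This was the largest fold change among the members and also the one with the largest error, at -0.49 ± 0.321 (SE), with an interval of -1.16 to 0.18 (edgeR, adjusted p = 0.321). As a fold, the interval ran from 0.447 to 1.14.

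Sirt1, the NAD-dependent deacetylase, had 32.1, 38.9, 32.4, 27.6 and 34.1 CPM in WT mice and 23.2, 36.1, 33.3, 29.4 and 28.5 CPM in KO mice. KO6 was the lowest mouse and the other KO mice lay inside the WT range. Its log2 fold change was -0.13 ± 0.117 (SE; edgeR, adjusted p = 0.484).

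Ncor1, the scaffold that Hdac3 needs for its activity, had 11.3, 6.10, 8.67, 9.55 and 8.30 CPM in WT mice and 8.75, 13.0, 11.5, 8.18 and 10.7 CPM in KO mice. KO7 and KO8 were above every WT mouse and WT2 was the lowest. Its log2 fold change was 0.23 ± 0.168 (SE), with an interval of -0.12 to 0.58 (edgeR, adjusted p = 0.366). Hdac3 and Ncor1 thus had point estimates of opposite sign, and neither passed the test. The median of all gene IDs of like abundance was also of opposite sign, at -0.12 for Hdac3 and 0.12 for Ncor1.

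Several of these values turned on single mice, although no call at an adjusted p of 0.05 was gained. With 1 mouse left out, the log2 fold change of Sirt1 ran from -0.20 (without KO7) to -0.046 (without KO6), with -0.073 without WT2. Hdac2 ran from -0.11 (without KO8) to -0.0083 (without KO10), with -0.045 without WT2. Both thus kept their sign, with KO6 and KO10 as the mice that carried most of the difference. Ncor1 was at 0.14 without KO7 and 0.15 without WT2, and Hdac1 at 0.20 without WT5 and 0.47 without WT3. Hdac11 was at -0.31 without KO8, its lowest mouse, and Hdac4 at -0.11 without WT3. The small values of Hdac9 and Hdac7 moved by over 1.5 times without 6 and 7 of the mice, in ranges of 0.030 (without KO6) to 0.26 (without KO8) and -0.012 (without KO9) to 0.094 (without KO10). Hdac3 and Hdac5 moved by less than that. Loess offsets, which remove a trend of the fold change with abundance, brought Hdac4 to -0.057, Hdac5 to -0.035 and Sirt1 to -0.031, Ncor1 to 0.15 and Hdac7 to 0.17. With 1 surrogate variable Hdac1 was at 0.13 and Hdac11 at -0.28. The strongest peak alone gave -0.010 for Hdac2, -0.051 for Hdac4, -0.061 for Hdac5 and 0.29 for Hdac7, and tested peaks only gave 0.090 for Ncor1, 0.12 for Hdac7, -0.059 for Hdac5 and -0.041 for Sirt1. For Hdac7 the surrogate variable gave 0.10 and DESeq2 0.032, for Hdac9 the surrogate variable gave 0.031 and for Sirt1 -0.19.

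**Figure D2:**
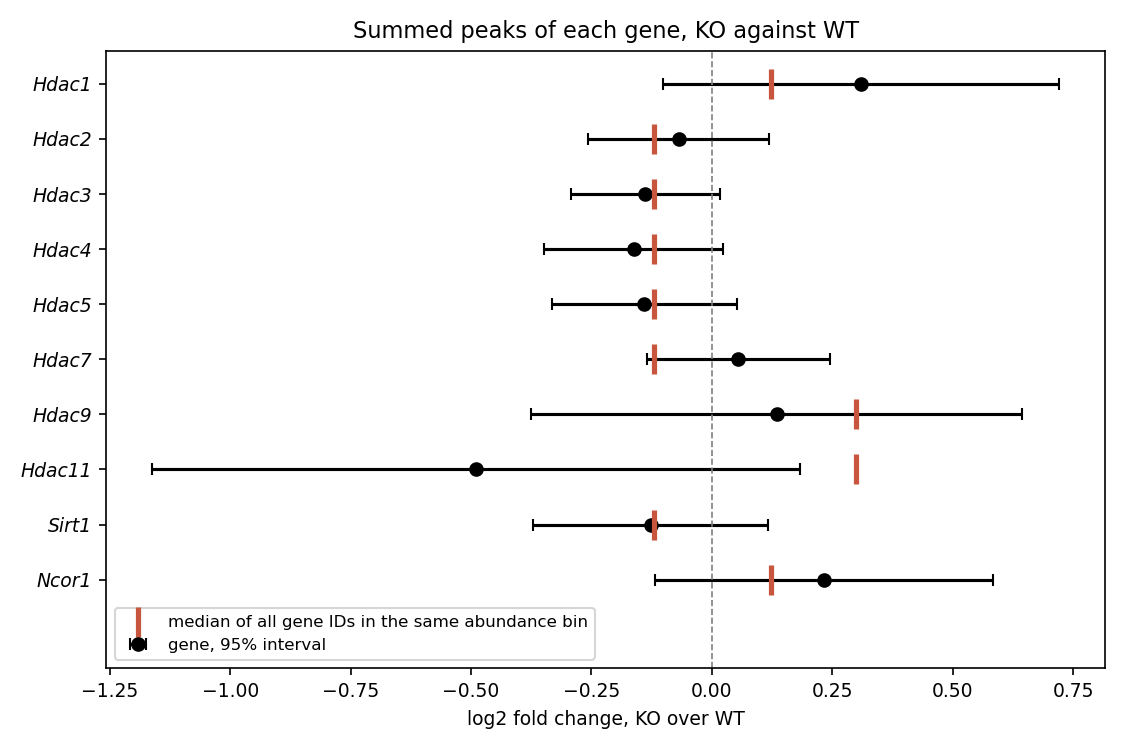
Log2 fold change (KO over WT) of the summed peaks of each gene from edgeR, with 95% intervals as bars, and as a red tick the median of all gene IDs in the same bin of mean abundance. Every interval reaches 0, and the red tick lies inside the interval of each gene except Hdac11.

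The fold changes over all gene IDs followed their abundance, and the members are best read beside genes of like counts. Gene IDs were split by mean abundance into 4 bins of equal size. In the highest bin, which holds Hdac2, Hdac3, Hdac4, Hdac5, Hdac7 and Sirt1, the median log2 fold change of all 9179 gene IDs was -0.12 and 83.1% were lower in KO mice. Hdac3 at -0.14, Hdac4 at -0.16, Hdac5 at -0.14 and Sirt1 at -0.13 lay close to that median, and Hdac7 at 0.06 was the only one of the 6 above 0. In that bin 26.5% of gene IDs were lower at an unadjusted p under 0.05, and 0 of the 6 members were. Hdac1 and Ncor1, at 0.31 and 0.23, are in the next-to-lowest bin, where the median was 0.12. Hdac9 and Hdac11 are in the lowest bin, where the median was 0.30 and 22.1% of gene IDs were lower, so Hdac11 at -0.49 goes against most gene IDs of its bin. The KO libraries had fewer counts, and the part of depth in this trend was not tested.

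The same question was put to single peaks, fitted over 81022 peaks. None of the 39 tested member peaks passed an adjusted p of 0.05, and over all peaks 0 of 81022 did (0.0%, or 852 peaks by DESeq2). At an unadjusted p under 0.05 there were 3, against 16.0% of all peaks. Of these, 1 was higher and 2 were lower in KO mice, against 10.4% and 5.65% of all peaks. In direction alone, 20 of the 39 were lower, against 50.4% of all peaks, with a median log2 fold change of -0.02. A fold change from this fit can differ from that of the summed counts by its scaling factors alone: the lone Hdac11 peak is at -0.40 here and at -0.49 above.

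Peak 2 of Hdac3 had the lowest p of the 39. Its counts were 30, 18, 40, 35 and 81 in WT mice and 9, 11, 14, 14 and 15 in KO mice. Scaled to CPM, these gave 4.53 ± 0.392 in WT and 2.63 ± 0.673 in KO (SD, n = 5 each), and every KO mouse lay below every WT mouse. The log2 fold change was -0.81 ± 0.217 (SE), with an unadjusted p of 0.00137 and an adjusted p of 0.0910 by edgeR, so the peak did not pass the test over all peaks. Lack of overlap by itself fixes the exact two-sided permutation p at 0.00794, the smallest that 5 against 5 mice can give. This p is unadjusted and adds nothing to the lack of overlap, in a peak named for its low p. Peak 2 of Hdac3 was the only tested member peak without overlap, where 3.05% of tested peaks had none and 1.21% were without overlap and lower. With each mouse left out in turn, its log2 fold change stayed between -0.94 and -0.70.

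None of the other tested Hdac3 peaks had an unadjusted p under 0.05. Peak 4, which held 41.0% of the gene's counts in WT and 41.5% in KO mice, had 33.5 ± 2.0 CPM in WT and 32.8 ± 2.26 in KO (SD, n = 5 each), a log2 fold change of -0.03 (edgeR, adjusted p = 0.898). Peak 1 was at -0.23, peak 3 at -0.05, peak 6 at -0.02 and peak 7 at 0.15, with unadjusted p from 0.128 to 0.934. Peak 1 depended on the fit, with 3 KO mice below every WT mouse and values of -0.39 without a filter (unadjusted p = 0.0169), -0.37 by DESeq2 (unadjusted p = 0.0356) and -0.34 without KO10 (unadjusted p = 0.0321). Peak 5 had 0 to 6 counts in a mouse and was not tested. Which of the 7 peaks lies at the start of Hdac3 was not analysed here.

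**Figure D3:**
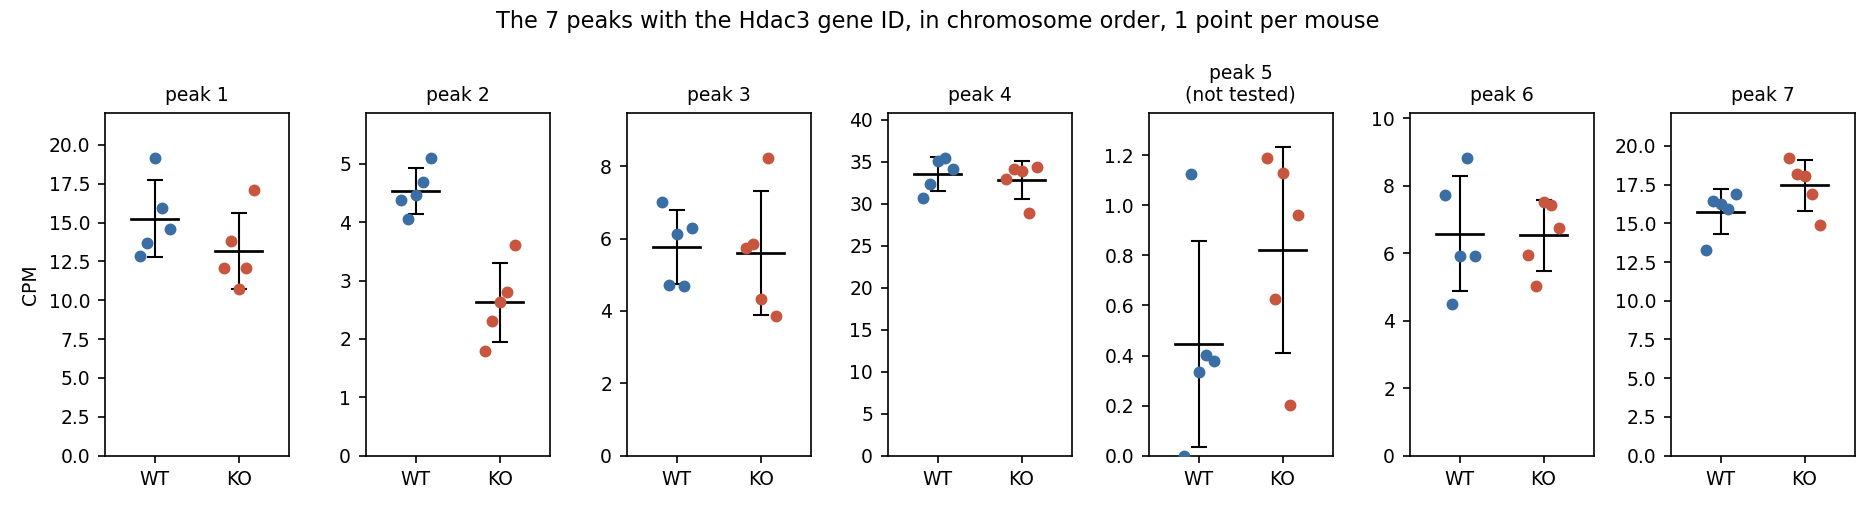
CPM of the 7 peaks with the Hdac3 gene ID, in order along chromosome 18, 1 point per mouse, with the mean as a line and the SD as bars (n = 5 per genotype), each panel on its own axis from 0. In peak 2 the 5 KO mice lie below the 5 WT mice, while WT and KO points overlap in the other 6 panels.

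Peak 5 of Hdac2 had an unadjusted p of 0.0191 and higher values in KO mice. Its counts were 7, 13, 12, 6 and 14 in WT mice and 16, 10, 13, 11 and 7 in KO mice. Scaled to depth, WT2 lay inside the KO range and the other 4 WT mice lay below every KO mouse, giving 1.39 ± 0.879 CPM in WT and 2.32 ± 0.551 in KO (SD, n = 5 each). The peak met the filter on low counts through KO mice and WT2, and without WT2 through KO mice alone. Its p-values thus belong to a peak admitted by the group where it is high, and are not support for a difference. The log2 fold change was 0.89 ± 0.348 (SE; edgeR, adjusted p = 0.213), and 1.20 without WT2 (adjusted p = 0.0534). It was smaller in other fits, at 0.58 with 1 surrogate variable (unadjusted p = 0.131), 0.61 with loess offsets (unadjusted p = 0.0800), 0.72 by DESeq2 (unadjusted p = 0.0723), 0.71 without WT5 (unadjusted p = 0.0682) and 0.74 without KO6 (unadjusted p = 0.0696).

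Peak 5 of Hdac4 had an unadjusted p of 0.0498 and fewer counts for their depth in KO mice, with counts of 160, 109, 302, 174 and 442 in WT mice and 73, 120, 114, 103 and 112 in KO mice. In CPM it had 26.5 ± 4.40 in WT and 21.7 ± 4.8 in KO (SD, n = 5 each), and the groups overlapped. The log2 fold change was -0.30 ± 0.145 (SE; edgeR, adjusted p = 0.312). Without KO6 it was -0.19 (unadjusted p = 0.163) and without WT3 -0.21 (unadjusted p = 0.166), and its unadjusted p was also above 0.05 without WT5, KO8 or KO9, with loess offsets (-0.23, unadjusted p = 0.106) and with at least 10 counts in every mouse (-0.27, unadjusted p = 0.0601). Without a filter it was -0.46 (unadjusted p = 0.00361).

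**Figure D4:**
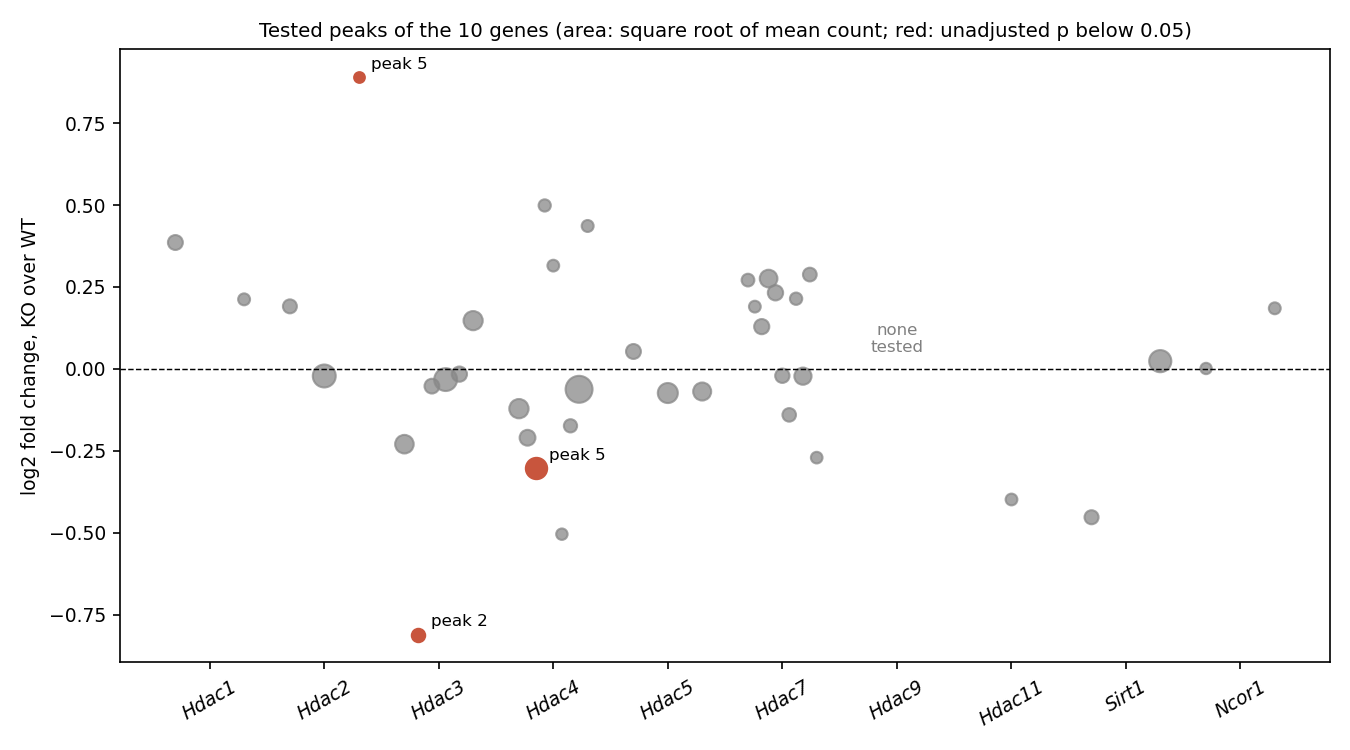
Log2 fold change (KO over WT, edgeR) of the 39 tested peaks, grouped by gene and in order along the chromosome within each gene, with the point area growing with the square root of the mean count and red for an unadjusted p under 0.05. The peaks with the most counts of Hdac2, Hdac3, Hdac4, Hdac5 and Sirt1 lie near 0, the 3 red peaks belong to Hdac2, Hdac3 and Hdac4, and Hdac9 has no tested peak.

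The peak with the most counts was near a log2 fold change of 0 for Hdac2, Hdac3, Hdac4, Hdac5 and Sirt1, and further from it, with wider intervals, for the others. Peak 2 of Hdac2, with 80.4% of the gene's counts in WT mice, was at a log2 fold change of -0.02, peak 3 of Sirt1, with 83.2%, at 0.02, and peak 12 of Hdac4, with 46.6%, at -0.06. Peak 2 of Hdac5 was at -0.07 with 51.6% of the counts. The 0.02 of Sirt1 peak 3 changed sign in 4 of the 6 other settings that kept all mice. Without a filter these strongest peaks were lower, at -0.18 for Hdac2, -0.19 for Hdac3, -0.21 for Hdac4, -0.24 for Hdac5 and -0.13 for Sirt1. Peak 4 of Hdac7 was at 0.28, peak 3 of Hdac1 at 0.39 and the Hdac11 peak at -0.40, with unadjusted p of 0.129, 0.127 and 0.228, and that of Hdac9 was not tested. Peak 11 of Ncor1, with 10 to 33 counts in a mouse, was at 0.18 (unadjusted p = 0.504). These 4 values moved with the fit. Hdac7 peak 4 was at 0.0048 with 1 surrogate variable, 0.11 without a filter, 0.14 by DESeq2, 0.16 without WT4, 0.17 without KO9 and 0.38 without KO6 (unadjusted p = 0.0380). Hdac1 peak 3 was at 0.16 with 1 surrogate variable, 0.22 without a filter, 0.25 by DESeq2 and 0.61 without WT3 (unadjusted p = 0.0154). The Hdac11 peak was at -0.12 with 1 surrogate variable, -0.22 without KO8 and -0.61 without KO7. Ncor1 peak 11 ran from 0.070 (without WT3) to 0.39 (without WT1) with a mouse left out, moved by over 1.5 times also without WT5, KO7 or KO8, and was at 0.024 without a filter.

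Of the 34 member peaks under the filter, 2 had no overlap between genotypes in CPM. Peak 3 of Hdac2 had counts of 13, 10, 17, 15 and 21 in WT mice and 6, 3, 6, 6 and 3 in KO mice, or 1.87 ± 0.340 and 0.975 ± 0.278 CPM (SD, n = 5 each). Peak 17 of Hdac4 went the other way, with counts of 6, 4, 7, 4 and 15 in WT mice and 10, 7, 10, 8 and 8 in KO mice, or 0.807 ± 0.163 and 1.77 ± 0.225 CPM. With peak 2 of Hdac3 this made 3 of 73 peaks, 2 lower and 1 higher, where over all 246479 peaks 2.43% had no overlap (0.501% lower and 1.93% higher in KO mice). Neither passed the filter in the fit over all mice. With the filter off, peak 3 of Hdac2 had a log2 fold change of -1.03 (adjusted p = 0.189) and peak 17 of Hdac4 one of 0.93 (adjusted p = 0.249). By DESeq2, which gave them no adjusted p, they were at -1.03 and 0.98. In 6 fits with a mouse left out, peak 3 of Hdac2 had an unadjusted p under 0.05, at -1.01 to -0.75. It met the filter there through WT mice alone, the group where it is high, so those fits are not support for a difference.

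Whether the peaks of a gene moved apart from each other was tested with edgeR's diffSpliceDGE on the peak fit, which compares each peak with the rest of its gene and does not depend on the summed level. It could be run for 8 members, all but Hdac9 and Hdac11. None passed an adjusted p of 0.05, against 1.18% of 17761 gene IDs, and 2 had an unadjusted p under 0.05, against 14.8%. These were Hdac3 (unadjusted p = 0.0113, adjusted p = 0.179) and Hdac2 (unadjusted p = 0.0330, adjusted p = 0.283). Within Hdac3, peak 2 was lower relative to the rest of the gene by a log2 value of -0.52, and its share of the gene's counts was 5.54% in WT and 3.32% in KO mice. Within Hdac2, peak 5 was at 0.59 relative to the rest, with a share of 3.22% in WT and 5.44% in KO mice. That peak met the filter on low counts mainly through KO mice. Without WT2, Hdac4 (unadjusted p = 0.0161) and Sirt1 (unadjusted p = 0.0164) joined Hdac3 and Hdac2, as did single peaks of both in the peak fit, peak 9 of Hdac4 at a log2 fold change of 0.62 (unadjusted p = 0.0399) and peak 2 of Sirt1 at -0.55 (unadjusted p = 0.0265), with adjusted p of 0.154, 0.154, 0.237 and 0.195. By peak shares, Hdac3 was above an unadjusted p of 0.05 without KO6, and Hdac2 without WT4. With loess offsets Sirt1 (unadjusted p = 0.0381) took the place of Hdac2.

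**Figure D5:**
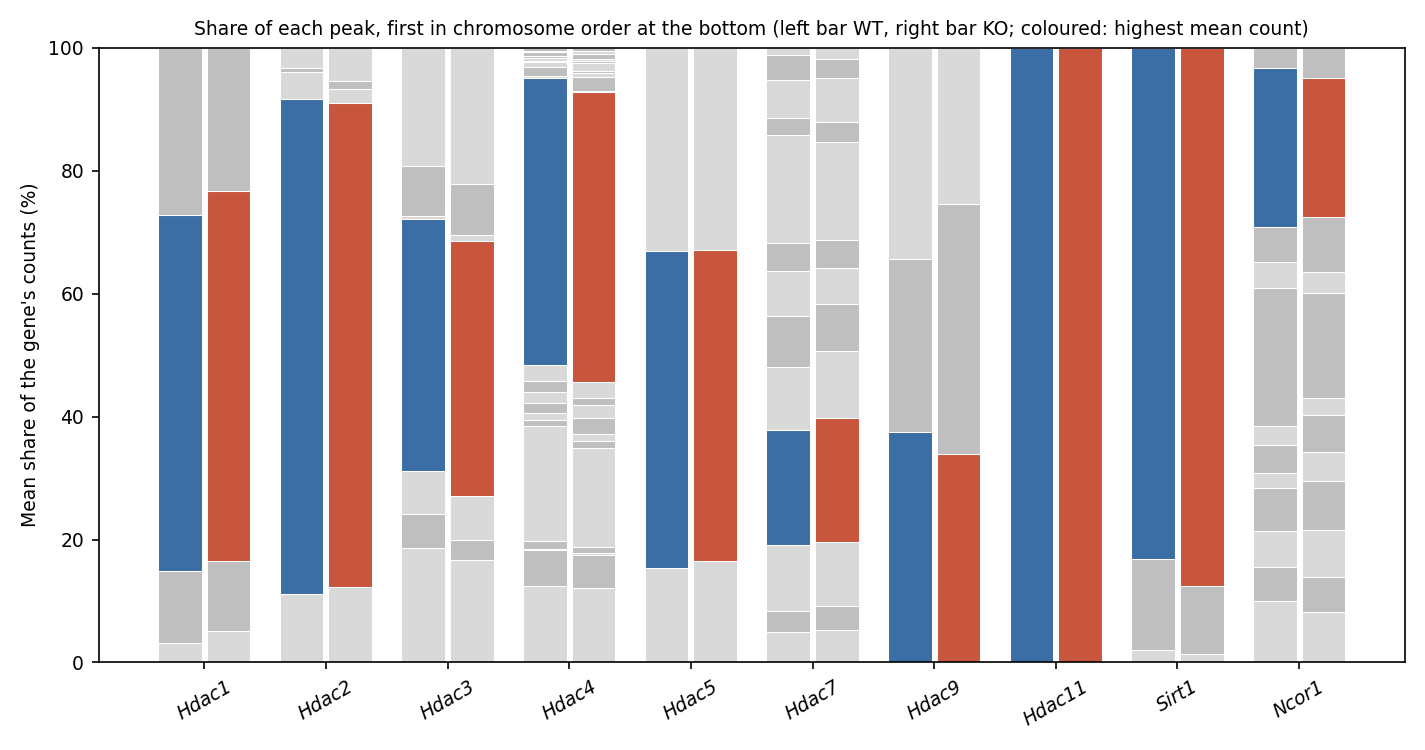
Mean share (%) of each gene's counts in each of its peaks, stacked in order along the chromosome from the bottom, with WT on the left and KO on the right and the peak of highest mean count in colour (n = 5 mice per bar). The coloured peak takes most of the counts of Hdac1, Hdac2, Hdac5, Hdac11 and Sirt1, and its mean share is close in WT and KO mice.

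For 6 of the 10 members the strongest peak nearby carries another gene ID. Among the 4 peaks on either side of the Ncor1 block, 1 had a mean count of 253.9, against 16.5 for the strongest peak under the Ncor1 ID, and its log2 fold change was -0.08 (unadjusted p = 0.471). For Hdac11 these means were 358.8 and 15.9, with a log2 fold change of -0.12 in the neighbouring peak, and for Hdac1 they were 163.7 and 41.2, with 0.03. Hdac5 (209.6 against 133.7), Hdac7 (111.5 against 81.0) and Hdac9 (14.9 against 7.10) also had a neighbour with more counts than their own strongest peak. The neighbours of Hdac5 and Hdac7 were at log2 fold changes of -0.02 and -0.09, and that of Hdac9 was at 0.61 (unadjusted p = 0.0238, adjusted p = 0.233). The neighbouring peaks of Hdac2, Hdac3, Hdac4 and Sirt1 had fewer counts than their own, at means of 8.90, 86.9, 28.2 and 27.3. The summed value of every member rests on how peaks were assigned to genes, a rule that is not given in the sources used here. These neighbours were looked at after the members' values were seen.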

How the data were processed

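ATAC-seq of IECs from 5 WT and 5 KO mice was used, with genotype and mouse number from the labels. The authors deposited raw counts per peak for 1 peak set shared by all mice, on mm10 per the submitters' processing notes, and a normalized signal, which the deposited values show to be the count divided by 1 factor per mouse (0.711 to 2.39) and which was not tested. The aligner, peak caller, treatment of duplicates and of the transposase offset, and the rule that gave peaks to genes are not given in the sources used here.

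Counts were summed per gene ID, leaving out peaks without one (0.612% to 0.965% of counts), filtered (filterByExpr), scaled (TMM) and tested with edgeR 4.0.16 (R 4.3.3) for genotype alone, and p-values were adjusted by Benjamini-Hochberg over all gene IDs or peaks. CPM were scaled to the filtered counts, after TMM. Single values used exact permutation over 252 labelings of log2 CPM (prior count 2 for genes, 0.5 added to the CPM for peaks). Scripts were tested on simulated counts. Tables used Python 3.11.15.

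Every member was named, with its peak of highest count and its peaks at an unadjusted p under 0.05; peaks without overlap and neighbouring peaks were chosen after their values were seen. The members and lists were chosen with earlier results of these data known. Pathway lists, cell type markers and genes most like Hdac3 and Ncor1 were planned by symbol and not analysed here. Alternatives were DESeq2 1.42.0, total counts, 2 other filters, loess offsets, 1 surrogate variable (sva 3.50.0), other sums of peaks, a prior count of 0.5 and leaving out each mouse.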

Additional observations from a re-analysis of the deposited data

Results flagged for a closer look

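Of 20 groups examined (10 members in WT and in KO mice), 1 had a mouse set apart from the rest of its group, and chance alone sets apart about 1 in 20. In WT2, Hdac5 had a log2 CPM of 5.38, with the nearest WT mouse at 5.20, a gap of 0.759 of the range of the WT mice, above the limit of 0.71 for groups of 5. Without WT2 the log2 fold change of Hdac5 was -0.10, against -0.14 with it, and it passed no threshold in either fit.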

How the results depend on the processing

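No member gene, member peak or member's set of peak shares passed an adjusted p of 0.05 under any alternative run. Members at an unadjusted p under 0.05 numbered 0 for summed counts, 1 with loess offsets (Hdac11, -0.81), 1 with 1 surrogate variable (Hdac4, -0.23), and 0 to 1 with a mouse left out (Hdac1 without WT1 or WT3, Hdac3 without WT2, Hdac4 without WT4 or KO7). Member peaks at that threshold were 3, and 5 with total counts, 9 without a filter, 0 with at least 10 counts in every mouse, 6 by DESeq2 and 3 to 6 with a mouse left out, and genes by peak shares were 2, 0 with at least 10 counts and 1 to 4. Hdac3 peak 2 kept its sign in all 15 alternatives that could give it (-0.98 to -0.70, adjusted p from 0.0536 to 0.298). With at least 10 counts in every mouse it was not tested, and DESeq2 gave it no adjusted p.

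Over all gene IDs the calls went from 1434 to 893 with total counts, 290 with loess offsets, 25 with 1 surrogate variable, 2232 by DESeq2, 10 for the strongest peak of each gene and 268 for tested peaks only. With a mouse left out they were lowest, at 0, without KO6, KO9, KO10, WT3 or WT5, and highest, at 3311, without WT2. Over all peaks they went from 0 to 394 without a filter, 859 with at least 10 counts, 6 with 1 surrogate variable, 852 by DESeq2, and 0 to 1880 (without WT2) with a mouse left out. For peak shares, 210 became 138 with total counts, 125 without a filter and 39 (without WT5) to 667 (without WT2).

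Signs that turned were all of small, uncalled values. Loess offsets gave Hdac2 0.040, Hdac9 -0.14, Hdac2 peak 2 0.048, Hdac5 peak 2 0.0087 and Hdac3 peak 4 0.034. Hdac2 was 0.033 over tested peaks only and its peak 2 0.012 with at least 10 counts, and Sirt1 was 0.036 by its strongest peak. Sirt1 peak 3 was -0.033 with total counts, -0.13 without a filter, -0.12 with 1 surrogate variable and -0.11 by DESeq2. With a mouse left out, Hdac7 ranged from -0.012 to 0.094, Hdac4 peak 12 from -0.12 to 0.0042, Hdac2 peak 2 from -0.071 to 0.026, Sirt1 peak 3 from -0.062 to 0.11, Hdac5 peak 2 from -0.16 to 0.018 and Hdac3 peak 4 from -0.069 to 0.0081. The cause was not tested. Exact permutation with a prior count of 0.5 kept the sign and the side of the threshold for the 10 members. No paired analysis was possible because numbers 1 to 5 and 6 to 10 have none in common. Depth limits Hdac9, Hdac11 and Ncor1, with under 50 counts in every peak and mouse.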
